A study of Rattus norvegicus with 12 samples.

Results

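Transcripts of 6 CC chemokine ligand genes, Ccl2, Ccl7, Ccl20, Ccl3, Ccl4 and Ccl5, were followed across 12 rat cornea libraries. They were chosen by gene symbol, and each symbol matched 1 of the 30452 genes in the deposited table. RNA sequencing covered 4 groups of 3 libraries each. Their labels read Control, Alkali-burned and, for the patches, SF/HA or SF/HA-HEP-PAM. The study concerns a detachable silk-based patch for the eye surface that is meant to remove mediators of inflammation. All samples are whole rat cornea. The labels give no strain, age, time after injury or alkali dose, leave SF, HA, HEP and PAM unexplained, and do not state that the corneas of the patch groups had been burned. Nothing says that the replicates came from separate animals, so every p-value below measures only the spread between these samples.

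CC chemokines are small secreted proteins named for adjacent cysteines near their amino terminus. They bind glycosaminoglycans of the matrix, form gradients there, and draw white blood cells by way of G protein-coupled receptors. Ccl2 and Ccl7 act through Ccr2 on monocytes. Ccl3 and Ccl5 act through Ccr1, among other receptors. Ccl3, Ccl4 and Ccl5 are made largely by activated myeloid cells and, for Ccl5, by T and NK cells. Ccl20 is the ligand of Ccr6 and is a known product of stimulated epithelium, which attracts lymphocytes and immature dendritic cells. In injured cornea, resident stromal and epithelial cells and arriving leukocytes are all known sources of chemokines.

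In build mRatBN7.2 of the submitters' processing notes, 5 of the 6 genes lie on chromosome 10. Ccl2 (ENSRNOG00000007159, plus strand) spans 67005424 to 67007226 and Ccl7 (ENSRNOG00000000239, plus strand) spans 67016446 to 67018303, with 9219 bases between them. Ccl5 (ENSRNOG00000010906, minus strand) spans 68322829 to 68327377. Ccl3 (ENSRNOG00000011205, minus strand) spans 68451388 to 68452938. Ccl4 (ENSRNOG00000011406, plus strand) spans 68452052 to 68468231. Ccl20 (ENSRNOG00000015992, plus strand) lies apart on chromosome 9, from 84388904 to 84391629. The Ccl4 entry is 16180 bases long, against 1551 to 4549 bases for the other 5, and it overlaps Ccl3 by 887 bases on the opposite strand. The sources used here do not say whether reads were assigned by strand, and how reads in the overlap were divided between Ccl3 and Ccl4 was not tested. FPKM here means reads per kilobase of this full span, scaled to the reads on genes of each library, which places Ccl4 low for its reads. An unnamed minus-strand gene (ENSRNOG00000068272) covers all 1803 bases of Ccl2 and is listed with 0 reads.

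RefSeq promoters were available for 2 of the members, Ccl7 and Ccl20, whose levels moved together across the libraries as described below. The sequences end just before the first annotated start, in build GRCr8, and capitals mark motif matches. They are shown to set side by side the upstream sequences of the monocyte-directed and the epithelial chemokine.
Ccl7, chr10:67513845-67514094, plus strand: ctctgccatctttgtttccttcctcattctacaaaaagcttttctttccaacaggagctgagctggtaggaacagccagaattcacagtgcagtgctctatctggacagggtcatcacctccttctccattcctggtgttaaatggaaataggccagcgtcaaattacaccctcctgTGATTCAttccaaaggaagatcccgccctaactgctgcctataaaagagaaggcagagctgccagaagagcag
Ccl20, chr9:91836909-91837138, plus strand: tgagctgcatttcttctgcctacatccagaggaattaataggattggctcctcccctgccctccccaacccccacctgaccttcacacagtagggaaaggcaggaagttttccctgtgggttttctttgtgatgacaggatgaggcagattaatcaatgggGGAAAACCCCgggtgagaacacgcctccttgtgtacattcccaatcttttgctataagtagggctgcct
Consensus motifs of inflammatory transcription factors were searched on both strands: that of NF-kB, that of AP-1 (TGANTCA) and that of C/EBP (TTGCNNAA). Ccl7 held 1 AP-1 match, TGATTCA, from position -73 to -67. Ccl20 held 1 NF-kB match, on the minus strand, GGAAAACCCC as read on the plus strand, from -69 to -60. Neither sequence held a match to the other motifs. Among all 33469 promoters of the RefSeq table, 250 upstream bases held an NF-kB match in 3.54%, an AP-1 match in 6.34% and a C/EBP match in 9.22%. A match describes the letters and is not evidence of binding.

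Depth, as reads on genes, was 486264 to 1015788 in Control, 1173159 to 1265298 after the burn, 499061 to 957696 in SF/HA, with 1245606 to 2117399 in SF/HA-HEP-PAM libraries. Some libraries stood apart from the others of their group. Control replicate 1 had the highest summed level of stromal markers, 85287 rpm (reads scaled to the library's total on genes) against 32979 and 37082 in the other Control libraries. Neutrophil marker sums were highest in SF/HA-HEP-PAM replicate 3 (20384 rpm), SF/HA replicate 2 (17775 rpm) and Alkali-burned replicate 1 (6787 rpm), each the top of its group, with all other libraries at or below 3420 rpm. These sums are carried by S100a8, S100a9 and Lcn2, and the other markers ordered the libraries differently, as given below. Of 8 corneal epithelium markers 6 were in the table and had reads, with Krt12, the cornea-specific keratin, at 2902 FPKM in Control on average. In bulk tissue, fewer cells of a type and less RNA per cell cannot be told apart, and this holds for every difference below.

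Ccl2 made up most of the CC chemokine reads in every library. It took 85.1% to 87.8% of the reads on the 6 genes in Control, 83.2% to 86.3% after the burn, 67.3% to 80.2% in SF/HA, with 58.2% to 78.9% in SF/HA-HEP-PAM libraries. Per kilobase of span, Ccl2 stood first in all 12 libraries. Ccl7 stood second on this scale except in SF/HA-HEP-PAM replicate 3 and in SF/HA replicate 2, where Ccl3 did. By reads, Ccl20 instead stood second in Control replicates 2 and 3 and in SF/HA replicates 1 and 3. The order of Ccl20 and Ccl3 differed between libraries of one group, and Ccl4 and Ccl5 were lowest on this scale. The 6 genes together took 1158 to 1804 rpm in Control, 2740 to 7222 after the burn, 5068 to 9834 in SF/HA, with 2935 to 3937 in SF/HA-HEP-PAM libraries.

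**Figure D1:**
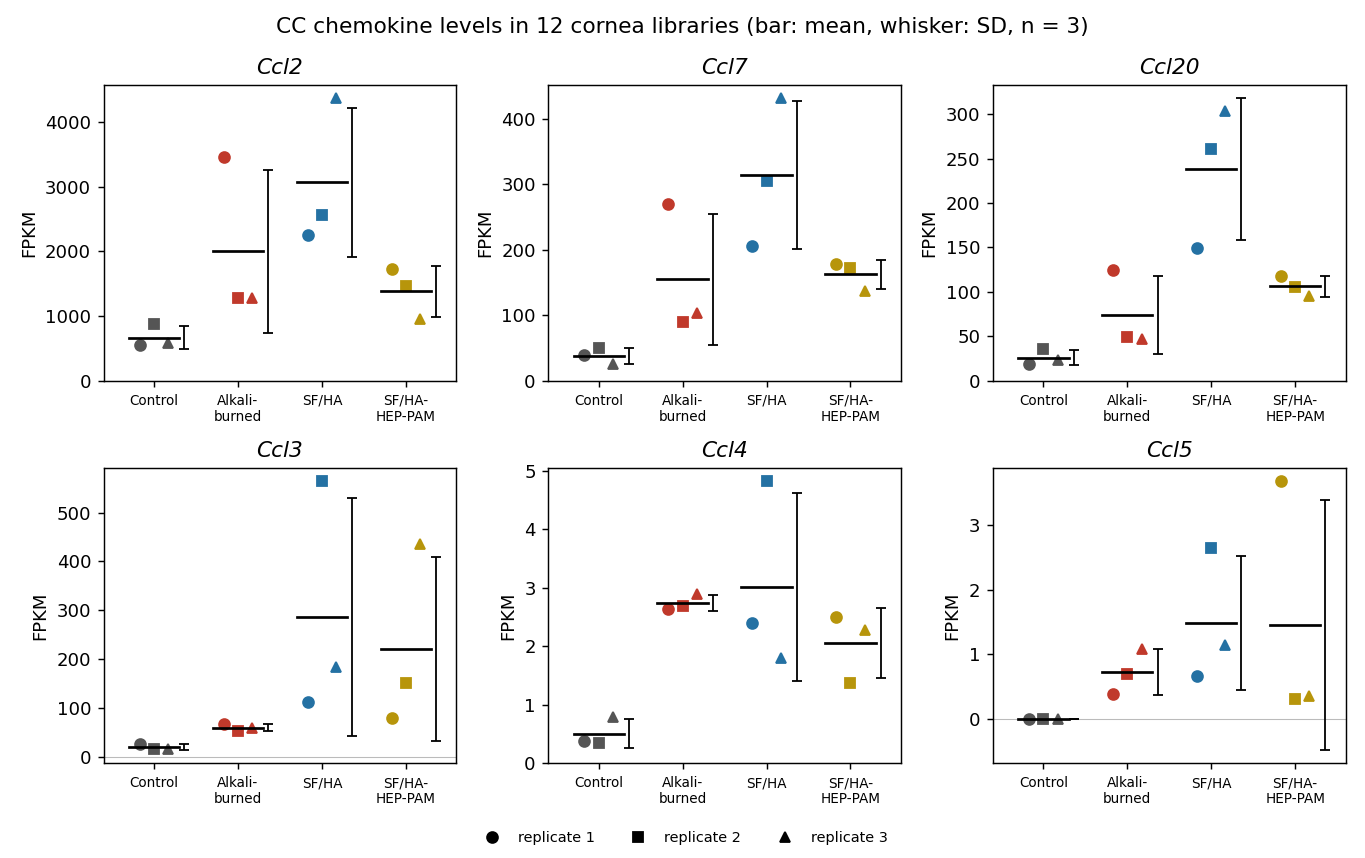
FPKM (vertical axis, linear, a scale per gene) of the 6 CC chemokine genes in each library of the 4 groups, with symbols for the replicate number, a bar for the mean and a whisker for the SD (n = 3). Alkali-burned replicate 1 is the highest of its group in Ccl2, Ccl7, Ccl20 and Ccl3, while over all 12 libraries Ccl3 is highest, at 565 FPKM, in SF/HA replicate 2 and next, at 435 FPKM, in SF/HA-HEP-PAM replicate 3.

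The monocyte chemokine Ccl2 was at 546, 879 and 580 FPKM in Control replicates 1 to 3, and at 3456, 1280 and 1274 FPKM in the Alkali-burned libraries. It was at 2253, 2562 and 4374 FPKM in SF/HA and at 1722, 1472 and 948 FPKM in SF/HA-HEP-PAM. Every library outside Control was above every Control library, and every SF/HA-HEP-PAM library was below every SF/HA library. The burned group overlapped both patch groups; its replicate 1 stood far above its other libraries.

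Ccl7, the second ligand of Ccr2 in this set, was at 39.8, 49.8 and 25.4 FPKM in Control. The Alkali-burned libraries had 270, 90.2 and 103 FPKM. The SF/HA libraries had 206, 304 and 431 FPKM, and the SF/HA-HEP-PAM libraries 178, 173 and 137 FPKM. Its libraries were ordered much like those of Ccl2, with the same high burned library and the same separation of the patch groups from each other.

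Ccl20, the epithelial ligand of Ccr6, was at 18.9, 35.6 and 23.8 FPKM in Control and at 124, 49.9 and 47.6 FPKM after the burn. It was at 149, 261 and 304 FPKM in SF/HA and at 118, 105 and 95.1 FPKM in SF/HA-HEP-PAM. All 3 SF/HA libraries were above all others, so that here the SF/HA group did not overlap the burned group.

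The myeloid chemokine Ccl3 was at 26.5, 16.0 and 17.1 FPKM in Control and at 67.6, 52.5 and 58.8 FPKM after the burn. It was at 112, 565 and 184 FPKM in SF/HA and at 79.2, 150 and 435 FPKM in SF/HA-HEP-PAM. All 6 patch libraries were above the 3 burned ones, and both patch groups spread widely, with a mean of 287 ± 243 FPKM in SF/HA and 221 ± 188 in SF/HA-HEP-PAM against 59.6 ± 7.59 in Alkali-burned (SD, n = 3).

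Ccl4, the neighbour of Ccl3 on chromosome 10, was at 0.381, 0.349 and 0.791 FPKM in Control, from 3, 5 and 13 reads. It was at 2.63, 2.69 and 2.89 FPKM after the burn, 2.41, 4.83 and 1.81 in SF/HA and 2.50, 1.37 and 2.28 in SF/HA-HEP-PAM. The burned libraries lay close together, and Ccl4 did not follow Ccl3 into SF/HA-HEP-PAM replicate 3. Reads on Ccl3 outnumbered those on Ccl4 by 1.87 to 2.46 times after the burn, 4.46 to 11.2 times in SF/HA, with 3.03 to 18.3 times in SF/HA-HEP-PAM libraries, and by 2.08 to 6.67 times in Control.

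Ccl5 had 54 reads in all and was listed at 0 in all 3 Control libraries, where 0 reads allow up to 0.276 FPKM over the group. It was at 0.375, 0.695 and 1.08 FPKM after the burn, from 2 to 6 reads. It was at 0.658, 2.64 and 1.15 FPKM in SF/HA and at 3.68, 0.311 and 0.353 FPKM in SF/HA-HEP-PAM, where replicate 1 held 24 of the 29 reads. The observed means were then set against that limit of 3 reads over the Control group. They were 2.60-fold higher in Alkali-burned, 5.37-fold in SF/HA and 5.25-fold in SF/HA-HEP-PAM. These folds allow for counting error in Control only. The other means rest on 12, 13 and 29 reads and are taken as observed, so the folds are not lower bounds. The folds also rest on few libraries. Without SF/HA-HEP-PAM replicate 1 that group's fold was 1.2, and without SF/HA replicate 2 that of SF/HA was 3.27. Without Control replicate 2 or 3 the folds were 1.63 and 1.49 for Alkali-burned, 3.38 and 3.09 for SF/HA, and 3.30 and 3.02 for SF/HA-HEP-PAM. The fitted log2 differences of Ccl5 given below depend on the pseudocount and do not use this limit.

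limma's F-test on log2(FPKM + 1) asked whether each gene differed among the 4 groups. It passed for 5 of the 6 genes, against 26.7% of the 6112 genes tested. The adjusted p was 0.00201 for Ccl20, 0.00352 for Ccl7, 0.00922 for Ccl3, 0.00962 for Ccl4, 0.0165 for Ccl2 and 0.189 for Ccl5. All 6 genes had at least 1 FPKM in at least 3 libraries, which admits a gene to the tests. Ccl5 did so through 4 libraries and Ccl4 through groups other than Control, so their passing was not independent of where they were high.

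In Alkali-burned against Control corneas, the comparison of injury with no injury, Ccl7 rose 4.03-fold in mean FPKM (log2 difference 1.85, SE 0.42, adjusted p = 0.0217). Ccl4 rose 5.40-fold (1.32, SE 0.26, adjusted p = 0.0119), from a Control level below the pseudocount of 1, so the log2 value understates it. A gene counted as called at an adjusted p below 0.05 and a log2 difference above 1 or below -1, and 4.42% of tested genes were called higher and 5.69% in either direction. The other 4 chemokines were not called. Ccl2 was 3.0-fold higher in the mean (log2 1.45, SE 0.41, adjusted p = 0.0560), Ccl20 2.83-fold (1.37, SE 0.39, 0.0549) and Ccl3 3.0-fold (1.56, SE 0.64, 0.172). Ccl5 had a log2 difference of 0.76 (95% interval -0.26 to 1.78). In all 6 genes every burned library was above every Control library, which held for 19.1% of tested genes. The median log2 difference of the 6 was 1.41, against 0.06 over all tested genes. Ccl7 lost its call without Control replicate 3 (1.59, adjusted p = 0.0746), and Ccl2 and Ccl20 passed with voom on the recovered reads (adjusted p = 0.0139 and 0.0259). Without Alkali-burned replicate 1 the fold was 2.52 for Ccl7 (log2 1.36, adjusted p = 0.0493), 1.91 for Ccl2 (0.97) and 1.87 for Ccl20 (0.92).

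SF/HA against Alkali-burned corneas sets the simpler patch beside the injured corneas. Ccl20 rose 3.22-fold (log2 1.76, SE 0.39, adjusted p = 0.0380), a direction in which 0.376% of tested genes were called (2.44% in both). Ccl3 was 4.81-fold higher in the mean and not called (1.92, SE 0.64, adjusted p = 0.161), and without SF/HA replicate 2 it was 2.48-fold higher (1.26). Ccl7 had a log2 difference of 1.13 (interval 0.21 to 2.06) and Ccl2 one of 0.72 (-0.20 to 1.64). Ccl4 lay at 0.03 (-0.54 to 0.61) and Ccl5 at 0.47 (-0.54 to 1.49). Of the 6, Ccl20 and Ccl3, had all SF/HA libraries above all burned ones, against 9.7% of tested genes. The call of Ccl20 was lost when SF/HA replicate 2 or 3 was left out (adjusted p = 0.138 and 0.0933), when replicate 2 or 3 of the burned group was (0.154 and 0.156) and with the replicate number as a block (0.0783). Without Alkali-burned replicate 1 Ccl20 was 4.88-fold higher and Ccl7 passed as well (1.63, adjusted p = 0.0328).

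In SF/HA-HEP-PAM against Alkali-burned corneas limma called none of the 6 genes, against 11.1% of tested genes, and 1 of the 6, Ccl3, had an unadjusted p below 0.05. Ccl3 was 3.71-fold higher in the mean (log2 1.53, interval 0.11 to 2.96, adjusted p = 0.116). All its SF/HA-HEP-PAM libraries were above all burned ones, as for 26.2% of tested genes. It passed with voom (adjusted p = 0.0339) and with library weights (0.0282), and it was 1.93-fold higher (0.87) without SF/HA-HEP-PAM replicate 3. Ccl2 had a log2 difference of -0.41 (-1.33 to 0.51), Ccl7 of 0.24 (-0.69 to 1.17) and Ccl20 of 0.66 (-0.21 to 1.52). Ccl4 lay at -0.31 (-0.89 to 0.26), with every SF/HA-HEP-PAM library below every burned one, as for 21.3% of tested genes, and Ccl5 at 0.26 (-0.76 to 1.28). These intervals include both no change and changes of 1 log2 unit in at least 1 direction for Ccl2, Ccl7, Ccl20 and Ccl5. Without the high Alkali-burned replicate 1, Ccl20 passed (1.10, adjusted p = 0.0478) and Ccl2 stood at 0.068. The 2 comparisons with the burned group share its 3 libraries, so their values for each gene are not independent.

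SF/HA-HEP-PAM against SF/HA is the direct comparison of the patch groups. All 6 chemokines had negative log2 differences and none was called by limma, where 0.524% of tested genes were called lower and 4.37% were called at all. An unadjusted p below 0.05 was found for 2 genes, Ccl2 at -1.13 (SE 0.41, interval -2.05 to -0.21, adjusted p = 0.116) and Ccl20 at -1.10 (SE 0.39, interval -1.97 to -0.24, 0.106). Ccl7 was at -0.89 (SE 0.42, interval -1.82 to 0.04, adjusted p = 0.216). In these 3 genes every SF/HA-HEP-PAM library was below every SF/HA library, which held for 9.69% of tested genes. Voom on the recovered reads called 2 of them, Ccl2 (-1.13, adjusted p = 0.0414) and Ccl20 (-1.11, 0.0291). Ccl3 at -0.39 (-1.81 to 1.04), Ccl4 at -0.34 (-0.92 to 0.23) and Ccl5 at -0.21 (-1.23 to 0.80) overlapped between the groups. Stromal markers moved in the same direction. Their sum was 12639 to 22062 rpm in SF/HA-HEP-PAM against 35655 to 38691 rpm in SF/HA libraries, with 2 of 6 tested called lower, Dcn (-1.21) and Lum (-1.11). Of the 6 epithelium markers Pax6 was called higher (1.08), where 3.84% of tested genes were. The part of this in the chemokine values was not tested.

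Against Control, SF/HA corneas had 5 of the 6 genes called higher, against 3.19% of tested genes called higher and 4.56% called at all. Ccl3 rose 14.4-fold in mean FPKM (log2 3.48, SE 0.64, adjusted p = 0.0107), Ccl20 9.12-fold (3.13, SE 0.39, 0.00176) and Ccl7 8.18-fold (2.99, SE 0.42, 0.00264). Ccl4 rose 5.95-fold (1.35, SE 0.26, 0.0123) and Ccl2 4.58-fold (2.17, SE 0.41, 0.0124). Ccl5 was not called (1.23, SE 0.46, adjusted p = 0.145). Ccl2, Ccl7, Ccl20 and Ccl3 were called whichever library was left out, with log2 differences from 1.88 for Ccl2 to 3.99 for Ccl3, and Ccl4 lost its call without Control replicate 2 (adjusted p = 0.0505). Without SF/HA replicate 2 Ccl3 was 7.44-fold higher (log2 2.82).

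In SF/HA-HEP-PAM against Control 4 of the 6 were called higher, against 9.21% of tested genes higher and 11.6% in either direction. Ccl3 rose 11.1-fold (log2 3.10, SE 0.64, adjusted p = 0.0078), Ccl7 4.24-fold (2.10, SE 0.42, 0.00657), Ccl20 4.07-fold (2.03, SE 0.39, 0.00546) and Ccl4 4.05-fold (1.01, SE 0.26, 0.0194). Ccl2 was 2.07-fold higher in the mean and not called (1.04, SE 0.41, adjusted p = 0.103), nor was Ccl5 (1.02, SE 0.46, 0.141). Ccl4 lay at the edge of the threshold and lost its call without Control replicates 1 or 2 or SF/HA-HEP-PAM replicates 1 or 3 (log2 0.95, 0.94, 0.90 and 0.95). Ccl7, Ccl20 and Ccl3 kept it whichever library was left out, and Ccl3 was 5.77-fold higher (log2 2.43) without SF/HA-HEP-PAM replicate 3. All 6 genes had every library of either patch group above every Control library, which held for 12.9% of tested genes in SF/HA and 27.2% in SF/HA-HEP-PAM. The 3 comparisons with Control share its libraries.

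**Figure D2:**
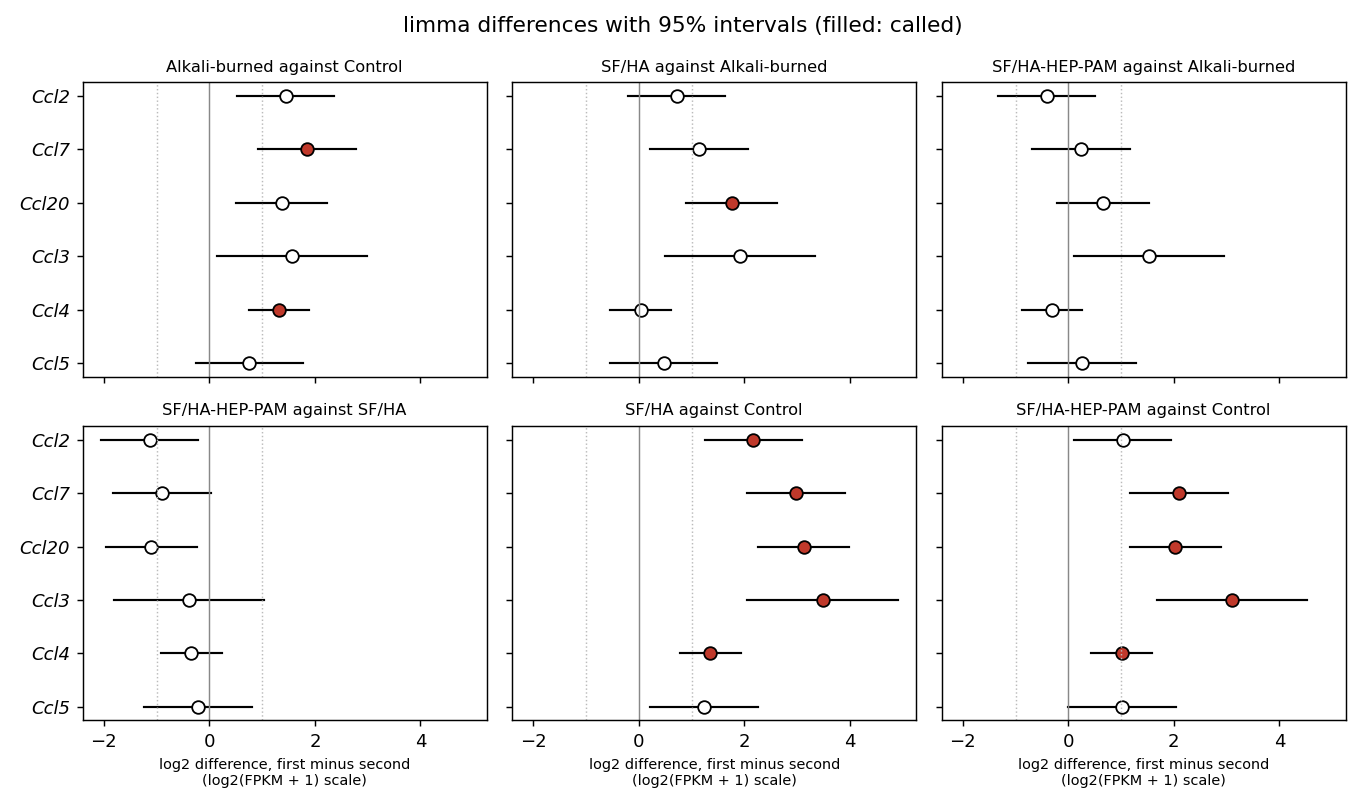
log2 differences on the log2(FPKM + 1) scale (horizontal axis, first group minus second) of the 6 CC chemokine genes in the 6 comparisons, as points with 95% intervals from limma; filled points were called and dotted lines mark -1 and 1. The burn called Ccl7 and Ccl4, SF/HA against the burn called Ccl20, and both comparisons between SF/HA-HEP-PAM and the other injured or patched groups have no filled point.

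In the make-up of the CC chemokine signal, Ccl2 relative to Ccl20 and to Ccl7 differed between the patch groups and the others. Ccl7 relative to Ccl20 did not. The ratio of Ccl2 to Ccl20, in FPKM within each library, does not depend on how libraries are scaled. It was 29.0, 24.7 and 24.3 in the Control libraries and 27.8, 25.7 and 26.8 in the Alkali-burned ones, which overlapped. It was 15.1, 9.82 and 14.4 in SF/HA and 14.6, 14.0 and 9.96 in SF/HA-HEP-PAM. The 6 patch libraries thus lay below the other 6 without overlap, while each set of 2 groups overlapped within itself. The ratio was chosen after its values were seen and is given with no test.

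The ratio of Ccl2 to Ccl7, both ligands of Ccr2, was 13.7, 17.6 and 22.8 in Control and 12.8, 14.2 and 12.3 in Alkali-burned. It was 10.9, 8.42 and 10.1 in SF/HA and 9.69, 8.52 and 6.92 in SF/HA-HEP-PAM. Again every patch library was below every other library. The share of Ccl20 in the reads of the 6 genes was 4.44% to 5.43% in Control, 4.70% to 4.96% after the burn, 8.04% to 10.4% in SF/HA, with 8.16% to 8.83% in SF/HA-HEP-PAM. Ccl3 took 1.38% to 3.55% of them in Control, 1.45% to 3.30% after the burn, 2.90% to 12.8% in SF/HA, with 3.12% to 23.0% in SF/HA-HEP-PAM, with overlap between all groups.

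**Figure D3:**
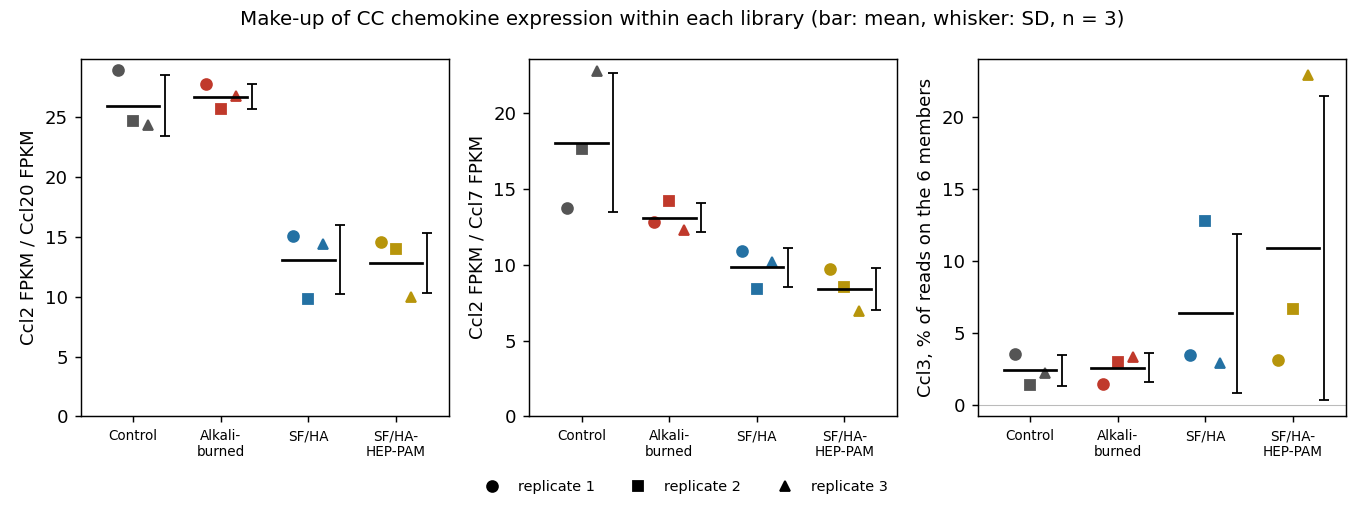
Ratios of Ccl2 to Ccl20 and of Ccl2 to Ccl7 in FPKM, and the percent of reads on the 6 genes that fell on Ccl3 (vertical axes, linear), for each library by group, with the mean as a bar and the SD as a whisker (n = 3). In both ratio panels the 6 patch libraries lie below all Control and Alkali-burned libraries; the Ccl3 share is widest in SF/HA-HEP-PAM.

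Correlations between the 6 genes were taken over the 12 libraries, which share tissue, depth range and group structure; they describe log2(FPKM + 1) and carry no test. Ccl7 and Ccl20 had a Pearson r of 0.96, Ccl2 and Ccl7 of 0.94 and Ccl2 and Ccl20 of 0.91. After the group means were taken out, the same pairs had 0.88, 0.91 and 0.91, so that libraries high in one of the 3 within a group were high in the others. Over all libraries Ccl3 had 0.82 with Ccl20, 0.78 with Ccl7, 0.56 with Ccl2 and 0.53 with Ccl5. After the group means were taken out these were 0.09, 0.06, -0.27 and -0.16. Ccl4 had 0.72 with Ccl3 and 0.74 with Ccl5, and 0.44 and 0.59 after group means.

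Among tested genes with a symbol, the 3 most like each member were named by this r over 12 libraries. For Ccl3 they were Il1b, the cytokine interleukin-1 beta (0.99, and 0.97 after group means), Srgn, a proteoglycan of leukocyte granules (0.97), and the lipid droplet protein Plin2 (0.97). Il1b was at 6.87 to 13.8 FPKM in Control, 25.9 to 31.1 after the burn, 43.7 to 175 in SF/HA, with 36.5 to 129 in SF/HA-HEP-PAM, with its maxima in the same 2 libraries as Ccl3. For Ccl4 they were Neurl3 (0.94), Il10, an anti-inflammatory cytokine (0.93), and the phosphatase Dusp2 (0.92). For Ccl5 they were Slamf9 (0.91), Rgs1 (0.90), a regulator of G protein signalling in leukocytes, and Pld4 (0.89).

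For Ccl2 the 3 were Mgst2, a microsomal glutathione transferase (0.95), Ccl7 (0.94) and Fam20c, a kinase of secreted proteins (0.93). For Ccl7 they were Ccl20 (0.96), the lipase inhibitor Angptl4 (0.95) and the metalloproteinase inhibitor Timp1 (0.95). For Ccl20 they were Ccl7 (0.96), Taf9 (0.94) and Mgst2 (0.94). Each of the 3 monocyte and epithelial chemokines thus had another of them among its nearest genes, and Ccl3, Ccl4 and Ccl5 did not.

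**Figure D4:**
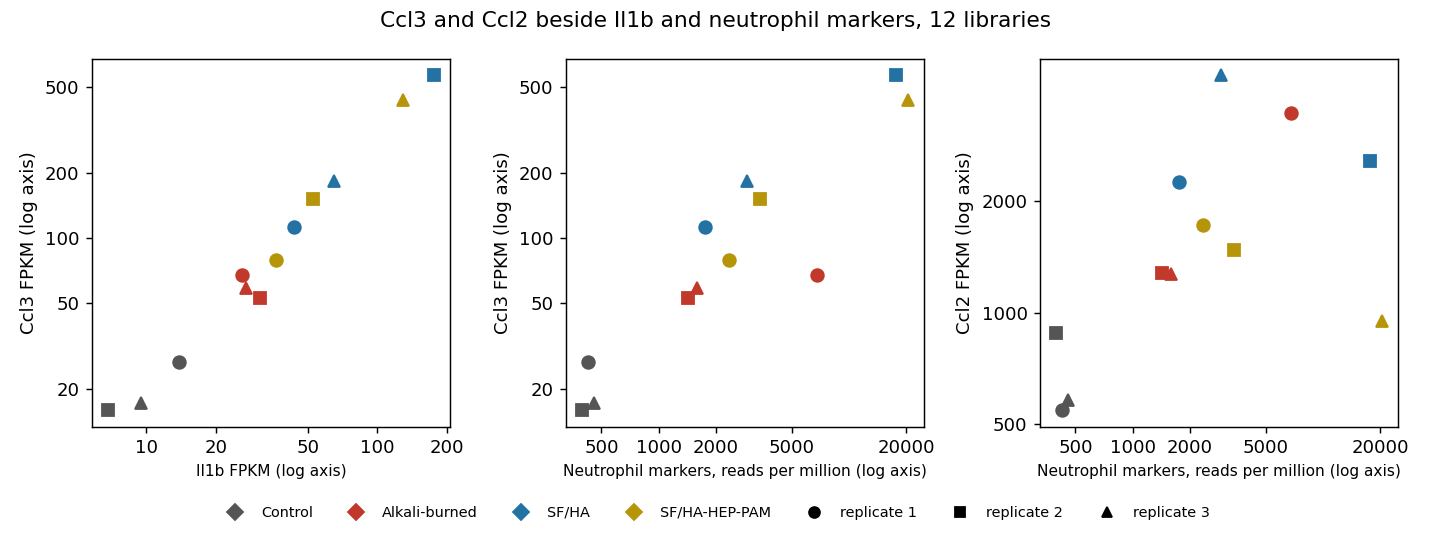
Ccl3 FPKM against Il1b FPKM, Ccl3 FPKM against the summed neutrophil markers in rpm, and Ccl2 FPKM against the same sum, for the 12 libraries (all axes logarithmic; colour for group, shape for replicate number). The 2 libraries highest in Ccl3 are also the highest in Il1b, while within Alkali-burned the library highest in Ccl3 is the lowest in Il1b. Alkali-burned replicate 1 has a neutrophil marker sum of 6787 with 67.6 FPKM of Ccl3, and SF/HA-HEP-PAM replicate 3 has the highest sum with 948 FPKM of Ccl2.

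Markers of the cells that make or answer these chemokines were summed per library and set beside the results, with no test of a link. The neutrophil marker sum was 397 to 455 rpm in Control, 1429 to 6787 after the burn, 1743 to 17775 in SF/HA, with 2339 to 20384 in SF/HA-HEP-PAM. Ccl3 was highest in the 2 libraries with the highest sums, while Alkali-burned replicate 1, with the next highest, had 67.6 FPKM. Of 12 neutrophil markers 10 had reads, with Mpo and Cxcr1 listed at 0. The sum is carried by S100a8, S100a9 and Lcn2, which stressed epithelium also makes, and the other 9 markers together had 0 to 39 reads per library. Those 9 were at 28.1 rpm in SF/HA replicate 2 and 27.2 rpm in SF/HA-HEP-PAM replicate 1. They were at 14.5 rpm in SF/HA-HEP-PAM replicate 3 and 3.41 rpm in Alkali-burned replicate 1. Of the 4 tested, S100a9 (3.81) and Lcn2 (2.50) rose in SF/HA-HEP-PAM against Control, by limma, beside 9.21% of all tested genes. In the same comparison S100a8 (3.13, adjusted p = 0.120) and Camp (0.34, adjusted p = 0.651) were not called. The part of neutrophils in the Ccl3 values was not tested.

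Monocyte and macrophage markers, the cells that Ccl2 and Ccl7 attract, summed to 263 to 285 rpm in Control, 869 to 1064 after the burn, 877 to 1954 in SF/HA, with 869 to 922 in SF/HA-HEP-PAM. All 15 listed genes had reads and 10 were tested. After the burn 8 of 10 rose, beside 4.42% of all tested genes, among them Lyz2 (2.64), C1qa (2.36) and C1qc (2.21). Under SF/HA against the burn Tyrobp rose (1.60) and Cd68 fell (-1.34), and under SF/HA-HEP-PAM against the burn Fcer1g rose (1.23) and Cd68 fell (-1.65). Of all tested genes 2.44% and 11.1% were called in these comparisons. Fcer1g was at 1.28 in SF/HA against the burn, not called (adjusted p = 0.0753 by limma), and at -0.06 between the patch groups. T and NK cell markers were near the limit of detection, at 0.984 to 24.0 rpm per library, with 10 of 14 listed genes showing any read and Klrb1 listed at 0. The library with most Ccl5, SF/HA-HEP-PAM replicate 1, had 9 of the 15 reads on Nkg7, a granule protein of T and NK cells. Other genes of the list did not follow, with 2 of 8 reads on Cd3d and 0 of 8 on Cd3e in that library. The list sum was highest in SF/HA replicate 2, at 24.0 rpm against 19.6 rpm in SF/HA-HEP-PAM replicate 1. The cells behind the Ccl5 reads were not tested. Nkg7 was the only tested gene of that list and was not called in any of the 6 comparisons by limma.

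Receptors for CC ligands gave few reads, and 2 of the listed ones, Ccr4 and Ccr8, were listed at 0. Ccr2, the receptor of Ccl2 and Ccl7, had 2 reads in all 12 libraries and Ccr6, the receptor of Ccl20, had 3. Ccr7, which guides dendritic and T cells to lymph nodes by way of Ccl19 and Ccl21, was at 0.0901 to 0.753 FPKM in Control, 0.390 to 0.579 after the burn, 1.37 to 3.48 in SF/HA, with 0.994 to 2.81 in SF/HA-HEP-PAM. It rose against Control in both patch groups (log2 1.18 and 1.02). It reached 1 FPKM in patch libraries alone, so its entry to the tests came from the groups where it is high. Of Ccr3 and Ccr9 there were 2 reads each and of Ccr10 there were 7.

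Among atypical receptors, which bind chemokines without the usual signalling, 4 of 5 had reads and 2 were tested. Ccrl2 rose in all 3 groups against Control (1.43 after the burn, 2.10 in SF/HA, with 1.46 in SF/HA-HEP-PAM), from 0 to 1 read per Control library. It was at most 0.862 FPKM in Control, so its entry to the tests came from the groups where it is high. Ackr3, a scavenger of the CXC chemokine Cxcl12, rose in SF/HA-HEP-PAM against the burn (1.03). In SF/HA against the burn it was at 0.994 (adjusted p = 0.0261 by limma), just under the log2 threshold. Between the patch groups it differed by 0.03. Ackr1 had 2 reads and Ackr2, the scavenger of inflammatory CC chemokines, had 1.

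Of 14 other CC ligands 11 had reads, 2 (Ccl1 and Ccl26) were listed at 0 and 5 were tested. Ccl19, the ligand of Ccr7, was at 1.06, 1.74 and 0.506 FPKM in Control, 5.70, 6.10 and 6.34 after the burn, 14.6, 7.21 and 15.6 in SF/HA, with 1.80, 10.4 and 5.37 in SF/HA-HEP-PAM. It rose against Control in all 3 groups (log2 1.79, 2.66 and 1.53). Ccl12, a further monocyte chemokine, was not called in any comparison, and 52 of its 73 reads lay in SF/HA-HEP-PAM replicate 1, the library with most Ccl5. Ccl21 had 26 of its 64 reads in SF/HA replicate 1, and Ccl17 and Ccl27 were likewise not called. Fewer than 20 reads each fell on Ccl9, Ccl11, Ccl22, Ccl24, Ccl25 and Ccl28.

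Of 16 CXC and other chemokines 11 were tested. After the burn 2 rose, Cxcl1 (1.94) and Cxcl3 (1.78), and Cxcl14 fell (-1.97). Of all tested genes 4.42% were called higher and 1.28% lower in that comparison. The neutrophil chemokine Cxcl1 was the only one called between the patch groups, lower in SF/HA-HEP-PAM by a log2 difference of -1.03, at 948 to 1199 FPKM against 1560 to 2792. Its direction was that of Ccl2, Ccl7 and Ccl20. Between the patch groups 0.524% of all tested genes were called lower.

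Of 13 cytokine genes 8 were tested and Ifng was listed at 0. After the burn 4 rose, Il6 (1.99), the growth factor Csf2 (1.98), Tnf (1.79) and Il33 (1.04), beside 4.42% of all tested genes. Csf2 was listed at 0 in Control and entered the tests through the burned group (1.40 to 4.91 FPKM) and 1 SF/HA library, so its passing was not independent of where it was high. The same holds for Il33, which was at most 0.831 FPKM in Control and entered through the other groups. Against Control, Il6 (2.83 in SF/HA, 1.97 in SF/HA-HEP-PAM) and Il1b (2.90 and 2.58) rose in both patch groups, and Il1rn rose in SF/HA-HEP-PAM (1.18). Of all tested genes 3.19% were called higher in SF/HA and 9.21% in SF/HA-HEP-PAM. Tnf, a classical inducer of Ccl2 and Ccl20, was at 3.93 to 9.05 FPKM in Control, 17.9 to 35.4 after the burn, 4.00 to 8.37 in SF/HA, with 5.33 to 11.955 in SF/HA-HEP-PAM. Tnf fell in both patch groups against the burn (-1.92 and -1.63; 2.06% and 3.71% of tested genes were called lower), where Ccl2, Ccl7, Ccl20 and Ccl3 had log2 differences of -0.41 to 1.92. Of 17 tested genes of NF-kB and AP-1 signalling 1 rose after the burn, near the 4.42% of all tested genes, Irf1 (1.0), which fell in both patch groups against it (-1.39 and -1.23). Cebpb rose in both (1.39 and 1.61), as did Fosl1 in SF/HA-HEP-PAM (1.45). Against Control 3 of 17 rose in SF/HA and 6 of 17 in SF/HA-HEP-PAM, with Tnfaip3 (1.72 and 1.80), Cebpb (1.33 and 1.55) and Nfkbia (1.09 and 1.42) in both, beside 3.19% and 9.21% of all tested genes.

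Proteoglycans and enzymes that hold chemokines in tissue were tested for 4 of 14 genes. Sdc1, a syndecan of epithelium, fell after the burn (-1.25) and rose in SF/HA-HEP-PAM against the burn (1.19), and no other was called. Of all tested genes 1.28% were called lower after the burn and 7.38% higher in SF/HA-HEP-PAM against it. Of 9 proteases able to trim chemokines 6 were tested. Mmp3 rose after the burn (2.95) and Mmp13 rose in SF/HA-HEP-PAM against it (2.51), each 1 of 6, beside 4.42% and 7.38% of all tested genes. Of 2 tested dendritic cell genes Cd74 rose after the burn (1.85), beside 4.42% of all tested genes, and none was called between a patch and the burn. Corneal epithelium markers had 3 of 6 tested lower after the burn, and stromal markers 3 of 6, where 1.28% of all tested genes were called lower. In SF/HA-HEP-PAM against the burn 2 of 6 epithelium markers were higher, Pax6 (1.46) and Cdh1 (1.04), where 7.38% of tested genes were. In the same comparison 1 of 6 stromal markers, Vim, was lower (-1.04), with a list median of -0.82 and sums of 12639 to 22062 against 28170 to 36936 rpm. Vascular endothelium markers had 0 tested. Of 3 tested corneal endothelium genes Col8a2 fell in that comparison (-1.03), where 3.71% of tested genes were called lower.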

How the data were processed

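The data are 12 RNA sequencing libraries of rat cornea, made, per the labels' protocols, with poly(dT) primers bearing a sample barcode and a unique molecular identifier. The authors deposited FPKM values. The submitters' processing notes list STAR, fastp, DESeq2, bcl2fastq and featureCounts with build mRatBN7.2, while the series text names HTSeq-count; whether duplicate molecules were collapsed is not given in the sources used here. Of the table's lines, 108 named no gene and were left out. Length equalled the genomic span for all 30452 genes, introns included. FPKM times length gave whole reads (largest deviation 9.25e-06), from which depth, reads scaled to library depth (rpm) and limits for 0 reads (3 reads) were taken; they cover counting error only.

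limma 3.58.1 in R 4.3.3 was fitted to log2(FPKM + 1) with a variance trend and 4 group means, on 6112 genes that reached 1 FPKM in 3 or more libraries. Adjusted p-values are Benjamini-Hochberg over all genes tested. The fitting code was also run on simulated reads, with changes in Alkali-burned against Control only. That simulation had the same spread setting for all genes and no outlying library, and no result here rests on it. All 6 members are named, with the called and highest genes of each list and the 3 most correlated genes per member. Members and lists were chosen with earlier results of these data known. Alternatives were other pseudocounts (0.5, 0.1), filters, scalings, library weights, a replicate block, voom on reads, left-out libraries, and, chosen after seeing the data, leaving out 4 libraries that stood apart. One receptor gene is not reported here. Figures used Python 3.11.15 and matplotlib 3.10.9.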

Additional observations from a re-analysis of the deposited data

Results flagged for a closer look

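Ccl2 stood on opposite sides of the burned mean of 2004 FPKM in the 2 patch groups. All 3 SF/HA libraries (2253 to 4374 FPKM) were above it and all 3 SF/HA-HEP-PAM libraries (948 to 1722 FPKM) below it. The difference between the patch groups, a log2 of -1.13 (SE 0.41), did not pass limma's test (adjusted p = 0.116), and the burned mean itself rests on Alkali-burned replicate 1. Without that library the burned mean was 1277 FPKM. SF/HA-HEP-PAM replicates 1 and 2 (1722 and 1472 FPKM) lay above it, so the opposite sides did not hold.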

How the results depend on the processing

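The number of the 6 genes called after the burn was 2; it was 1 without a filter on low values, 4 with library weights and 4 with voom, and 1 to 2 when 1 library was left out. For SF/HA against the burn the number was 1; it was 0 without a filter, 0 with only the compared libraries and 0 with the replicate block, and 0 to 2 with 1 library left out. For SF/HA-HEP-PAM against the burn it was 0; it was 1 with library weights (Ccl3), 1 with voom (Ccl3) and 0 to 1 with 1 library left out. For SF/HA-HEP-PAM against SF/HA it was 0, and 2 with voom. The numbers for both patch groups against Control (5 and 4) and for the F-test (5) stayed within 1.5 times under all alternatives run. Without the 4 libraries that stood apart, Ccl7 lost its call after the burn (log2 1.41, adjusted p = 0.0774) and Ccl3 gained one (1.69, 0.0291). Replicate numbers were shared between groups, but same-numbered libraries did not deviate together (2 of 18 correlations above 0.1, range -0.0935 to 0.155; 0 of 12 libraries correlated best with their own number in every other group), so the block was kept as an alternative only. Apart from Ccl20 in SF/HA against the burn, it changed none of the members' calls.

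Directions turned only for differences that were not called. In SF/HA against the burn, Ccl4 was -0.15 with library weights, -0.067 with voom, -0.29 without the 4 libraries and -0.27 to 0.25 with 1 library left out (negative without SF/HA replicate 2). In SF/HA-HEP-PAM against the burn, the range with 1 library left out was -0.65 to 0.068 for Ccl2 (positive without Alkali-burned replicate 1), -0.051 to 0.74 for Ccl7 (negative without Alkali-burned replicate 2) and -0.35 to 0.57 for Ccl5 (negative without SF/HA-HEP-PAM replicate 1), and Ccl2 was 0.32 without the 4 libraries. Between the patch groups, it was -1.05 to 0.27 for Ccl3 (positive without SF/HA replicate 2, and 0.17 without SF/HA-HEP-PAM replicate 1) and -0.82 to 0.10 for Ccl5 (positive without SF/HA replicate 2 or SF/HA-HEP-PAM replicates 2 or 3), and Ccl5 was 0.39 without the 4 libraries. The cause was not tested. With a pseudocount of 0.1, Ccl5 passed against Control in SF/HA (3.78, adjusted p = 0.0233) and SF/HA-HEP-PAM (3.15, 0.0234). Ccl4 against Control in SF/HA-HEP-PAM fell under the threshold with median-of-ratios scaling (0.88) and quantile normalization (0.66). Ccl7 after the burn missed the threshold without a filter (adjusted p = 0.0652) and when the fit held just the 2 compared groups (0.0587), as did Ccl4 in SF/HA against Control with the latter (0.0655), while Ccl3 after the burn passed there (1.56, adjusted p = 0.0118). At 5 FPKM or more Ccl4 and Ccl5 were not tested. Depth limits what can be said of Ccl5, with 54 reads in all.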

Other observations

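A protein-coding gene without a symbol in the table (ENSRNOG00000030021) lies between Ccl9 and Ccl3 on chromosome 10, from 68380188 to 68384001 on the minus strand. It was singled out after its values were seen. It was at 20.5, 36.4 and 44.7 FPKM in Control, 187, 166 and 170.2 in Alkali-burned, 38.9, 34.7 and 81.0 in SF/HA and 15.2, 33.3 and 42.5 in SF/HA-HEP-PAM. It rose after the burn (log2 2.40, SE 0.42, adjusted p = 0.00829) and fell against the burn in SF/HA (-1.84, adjusted p = 0.0427) and in SF/HA-HEP-PAM (-2.60, adjusted p = 0.00221), by limma. Neither patch group was called against Control (0.56 and -0.20). Its libraries were thus ordered unlike those of Ccl3, its neighbour, which was highest in the patch groups.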
